A study of Mus musculus with 7 samples.

Results

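The Forkhead (Fox) genes encode transcription factors that bind DNA through a winged-helix domain, and the family was followed here across 7 sorted cell populations of the mouse embryo around the onset of kidney formation. Members were the non-control array probes whose gene name was Fox followed by 1 letter from a to s and 1 digit. The rule used names and no measured value. It found 59 probes of 43 genes, among 55681 probes of 27126 genes in all. Of the 59 probes, 54 were matched to RefSeq through their transcript accession and 0 carried another symbol there. Foxf1 is named Foxf1a on the array and so lies outside the rule. It is given only as a neighbour of members.

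Fox proteins divide labour by cell type. Foxa proteins open chromatin in endoderm, notochord and floor plate, Foxc and Foxf proteins act in mesoderm and mesenchyme, Foxb1 acts in the neural tube, and Foxo, Foxk and Foxj3 are broadly expressed. In the developing mouse kidney Foxd1 marks the stromal progenitors that surround the nephron progenitors, and Foxc1 and Foxc2 act in the nephrogenic mesoderm. Foxm1 drives mitotic genes and Foxj1 the genes of motile cilia.

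All cells came from C57BL6J embryos with an Osr1-GFP knock-in, so that green fluorescent protein (GFP) is made by cells in which Osr1, a gene of the early lateral plate and intermediate mesoderm, is active. Whole embryos of E8.5 gave Osr1-GFP-positive and Osr1-GFP-negative cells. The caudal part of E9.5 embryos gave 3 populations, which were gated cells (Osr1-GFP-positive, positive for the integrin Itga8 and negative for the receptor Pdgfra), the remainder, which is every Osr1-GFP-positive cell outside the gate, and Osr1-GFP-negative cells. The metanephric mesenchyme of E11.5 embryos gave gated cells by the same rule and the remainder. Plots label the remainder as other GFP-positive. The sources used here do not give the number of embryos per sort or the number of knock-in copies per embryo. The study set the gate against the remainder to separate nephron progenitors from surrounding mesenchyme.

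Each population was measured on 1 single-colour Agilent array of 59305 non-control spots, so no test between populations could be run and no fold below has a replicate check. Precision is limited by the number of arrays. Between 56.2% (E8.5 GFP-negative cells) and 84.1% (E9.5 remainder) of spots lay well above background. Levels are given as log2 of the signal after division by the array's own 75th percentile, so that 0 is a spot at that percentile. Levels of different genes come from different probes and are not set against each other. Probes spotted 10 times per array had a median standard deviation of 0.0945 log2 units within an array, or 0.134 for a difference, a measure of spot noise that leaves out the spread between embryos or sorts. Osr1 was well above background on the 5 GFP-positive arrays and on neither GFP-negative array. In gated cells Itga8 was higher and Pdgfra lower than in the remainder at both stages, in the direction of the sort. Slide 2 held the E9.5 gate and the E9.5 GFP-negative cells, so differences between them and the other 5 arrays also lie across slides, and slide and population cannot be told apart there.

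The sequences before the transcription starts of Foxd1, Foxd2, Foxc1 and Foxf2 are shown because these members differed between gated and remainder cells of the kidney rudiment, and because Foxf2 and Foxc1 are neighbours on chromosome 13. Each run is the 250 bases before the start on the strand of the gene, from RefSeq on GRCm38.p6, with matches to CCAAT or GGGCGG on either strand in capitals. The coordinates are chr13:98353995-98354244 (plus strand) for Foxd1, chr4:114908899-114909148 (minus strand) for Foxd2, chr13:31806396-31806645 (plus strand) for Foxc1 and chr13:31625566-31625815 (plus strand) for Foxf2.
Foxd1: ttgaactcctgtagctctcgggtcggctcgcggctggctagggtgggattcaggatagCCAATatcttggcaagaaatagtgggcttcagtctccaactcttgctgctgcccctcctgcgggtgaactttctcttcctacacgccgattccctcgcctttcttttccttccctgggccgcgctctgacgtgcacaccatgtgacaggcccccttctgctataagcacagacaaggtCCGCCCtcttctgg
Foxd2: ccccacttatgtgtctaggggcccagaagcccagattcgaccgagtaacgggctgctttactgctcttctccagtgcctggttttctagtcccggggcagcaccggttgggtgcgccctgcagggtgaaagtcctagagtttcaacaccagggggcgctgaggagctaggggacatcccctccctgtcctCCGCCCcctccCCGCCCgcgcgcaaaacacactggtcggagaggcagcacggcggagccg
Foxc1: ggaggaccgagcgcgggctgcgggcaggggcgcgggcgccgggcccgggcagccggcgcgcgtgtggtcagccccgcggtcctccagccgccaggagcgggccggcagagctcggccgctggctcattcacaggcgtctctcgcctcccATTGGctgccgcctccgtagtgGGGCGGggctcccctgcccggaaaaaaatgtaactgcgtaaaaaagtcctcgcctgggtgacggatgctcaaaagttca
Foxf2: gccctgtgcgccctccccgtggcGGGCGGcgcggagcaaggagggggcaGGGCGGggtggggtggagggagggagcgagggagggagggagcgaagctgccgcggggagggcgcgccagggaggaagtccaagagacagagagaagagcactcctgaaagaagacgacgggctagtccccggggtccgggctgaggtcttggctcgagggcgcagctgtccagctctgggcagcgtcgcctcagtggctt

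All 4 stretches hold GGGCGG or its reverse complement. That of Foxd1 also holds CCAAT, and that of Foxc1 its reverse complement ATTGG. Promoter windows of 300 bases, 250 before and 50 after the start, were given for 28 of the 43 members, 33 windows in all. GGGCGG stood in 24 of the 33 (72.7%), against 35.7% of all 32851 windows. CCAAT stood in 15 (45.5%), against 37.4% of all windows, and TATAAA in 3 (9.09%), against 13.6%. The median window of a member had 62.7% G and C and 22 CpG dinucleotides, against 52.7% and 7 over all windows. The Fox core motifs TGTTTAC and TGTTTGC, also searched on both strands, stood in 1 and 2 member windows (3.03% and 6.06%), against 3.65% and 5.07% of all windows. A match describes letters in the window and not a bound site.

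Of the 43 members, 27 were well above background on all 7 arrays and 0 on none. Another 5 were well above background on 6 arrays, 2 on 5, 3 on 4, 3 on 3, 1 on 2 and 2 on 1. Over all genes 56.9% were above background on every array and 9.69% on none. The E9.5 GFP-negative array showed 40 members well above background, with 75.6% of all genes, and the E8.5 GFP-negative array 32, with 60.2% of all genes. Among the 27 members measured everywhere the median range between the lowest and highest array was 0.98 log2 units, close to the 1.07 of all such genes, and 14 of the 27 ranged by less than 1.

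**Figure D1:**
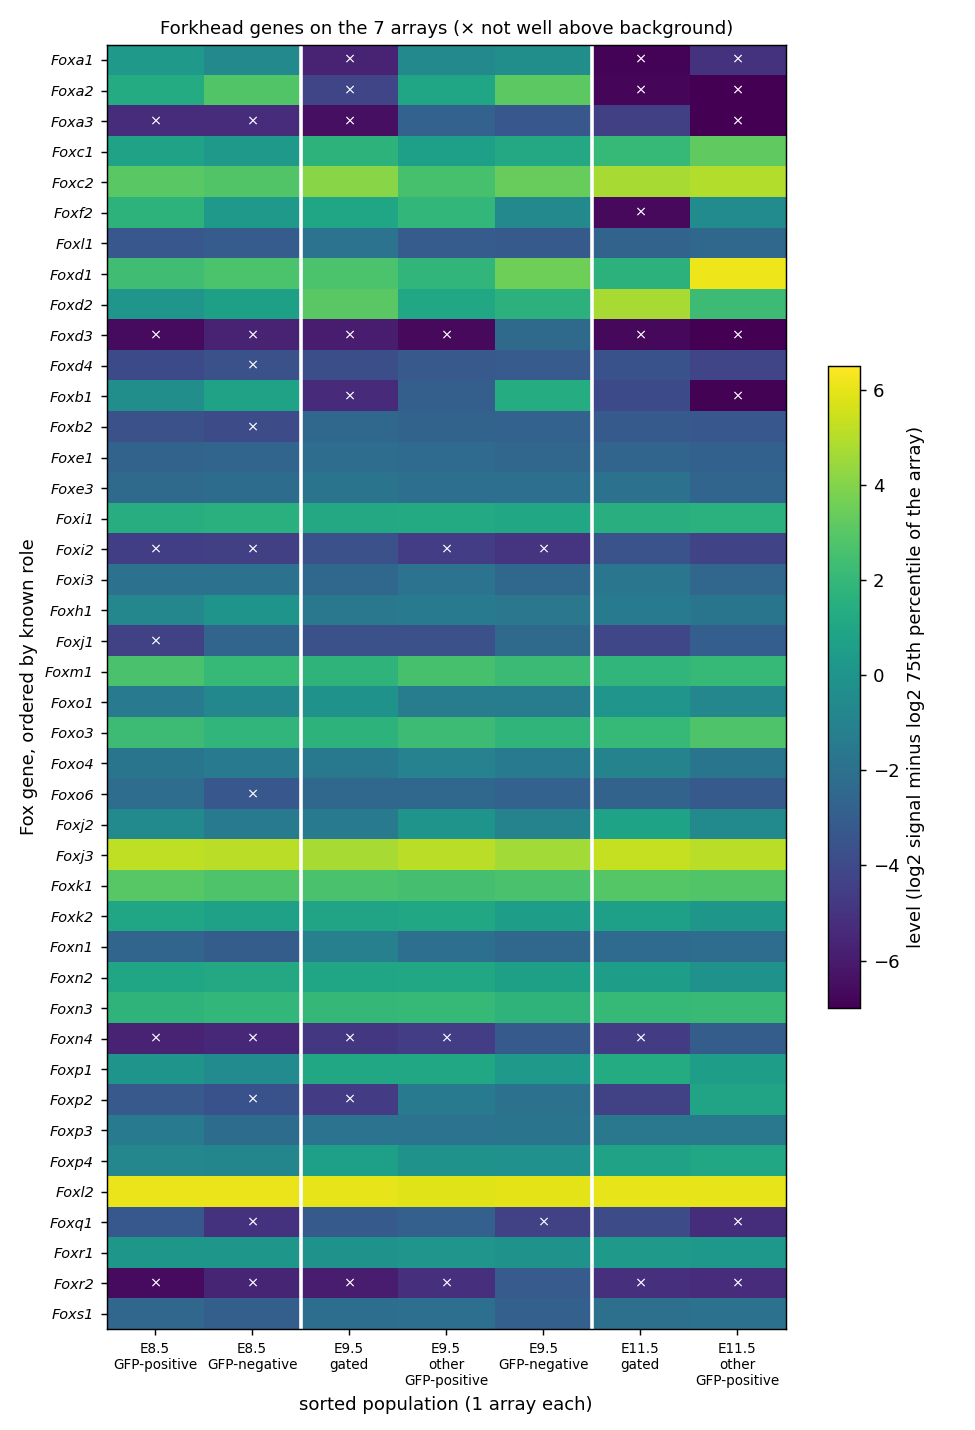
Levels of 42 Fox genes (rows, by known role) in the 7 sorted populations (columns), as log2 signal minus the log2 75th percentile of the array, with 1 array per population and a cross where the probe was not well above background. Colours compare 1 gene across columns, not genes with each other. Foxd1 stands out at 6.15 in E11.5 remainder cells, and Foxl2 stays within 0.25 log2 units.

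Differences were counted from 2-fold. Where 1 side was not well above background it was raised to the lowest well-above level of its array unless already above that, and the fold is then a bound, written "at least". Over 8 comparisons 25 members passed 2-fold at least in 1 and 18 in none. A gene that is dim on one side is counted only through its bright side, so the share of all measured genes past the same fold is given beside each count.

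In E11.5 gated cells 4 of 39 measured members were higher and 7 lower than in the remainder, both from 1 slide. Of all measured genes 10.5% were higher and 9.48% lower. Foxd2, Foxj2, Foxq1 and Foxb1 were the higher members, and Foxp2, Foxf2, Foxd1, Foxn4, Foxj1 and Foxc1 were among the lower ones. The median difference was 0.11 over members and 0.15 over all measured genes. With quantile normalization 2 members were higher and 7 lower, against 7.79% and 10.6% of all genes, and Foxq1 and Foxb1 no longer passed. Immediate early genes, which respond to tissue handling, had 2 of 12 higher and 7 lower in the gate, with a median of -1.23 and log2 summed levels of 7.55 in the gate and 8.42 in the remainder. The part of handling in the Fox differences was not tested.

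In E9.5 gated cells 6 of 40 measured members were higher and 6 lower than in the remainder. Of all measured genes 5.15% were higher and 9.42% lower, which became 8.61% and 8.09% with quantile normalization. Foxd2, Foxc2, Foxl1, Foxo1 and Foxc1 were among the higher members, and Foxa2, Foxa1, Foxp2, Foxa3, Foxb1 and Foxj2 were lower. The median difference was -0.05 over members and -0.15 over all genes. Of the 6 lower members 5 were bounds, with the gated side not well above background. This comparison lies across slides. With normexp background correction, Foxo1 (0.93 log2 units), Foxl1 (0.59) and Foxb1 (-0.27) no longer passed 2-fold.

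Set against E9.5 GFP-negative cells, the gated cells had 7 of 43 members higher (5.71% of all genes) and 9 lower (6.39% of all genes). On unscaled signals the shares of all genes were 3.88% and 8.77%. Bounds made up 2 of the 7 higher members and 8 of the 9 lower ones, the latter with the gated side not well above background. With both arrays required above background 1 of 32 members was lower, against 4.49% of all genes. The remainder cells had 2 of 42 members higher (8.66% of all genes) and 7 lower (5.16% of all genes) than the GFP-negative cells, across slides. With quantile normalization these shares of all genes were 6.75% and 9.09%. Both comparisons share the GFP-negative array. At E8.5 the GFP-positive cells had 2 of 35 members higher (7.82% of all genes) and 3 lower (6.77% of all genes) than GFP-negative cells, shares of 5.71% and 8.57% of the measured members that lie near those of all genes. On unscaled signals 4 members were higher and 2 lower, against 9.96% and 5.67% of all genes. Red blood cell genes moved with each comparison against GFP-negative cells. Of 14 such genes 12 were lower and 0 higher in the E9.5 gate, 13 lower and 0 higher in the E9.5 remainder, and 14 lower and 0 higher in E8.5 GFP-positive cells. Their log2 summed level was 1.91 in the E9.5 gate and 3.91 in the E9.5 remainder, against 10.6 in E9.5 GFP-negative cells, and their median difference at E8.5 was -8.02. All 14 were well above background on both GFP-negative arrays, against 8, 12 and 10 in the E9.5 gate, the E9.5 remainder and E8.5 GFP-positive cells, and the globins Hba-x and Hbb-y were not in the gate. The part of red blood cells in the Fox differences was not tested.

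At 4-fold the members called were fewer and the shares of all genes smaller. The E9.5 gate had 2 members higher (0.841% of all genes) and 3 lower (1.19% of all genes) than the remainder, and 1 higher (1.19% of all genes) and 5 lower (1.87% of all genes) than GFP-negative cells. The E9.5 remainder had 1 higher (0.801% of all genes) and 3 lower (1.26% of all genes) than GFP-negative cells. At E8.5 the GFP-positive cells had 0 higher (0.991% of all genes) and 0 lower (2.71% of all genes). Foxa1, Foxa2, Foxb1, Foxd2, Foxd3, Foxf2 and Foxp2 were among the members past 4-fold at E9.5. The E11.5 gate had 1 higher (2.16% of all genes) and 4 lower (3.26% of all genes) than the remainder. Between stages, the E9.5 gate had 2 higher (2.41% of all genes) and 3 lower (1.58% of all genes) than E8.5 GFP-positive cells, and the E11.5 gate 1 higher (1.28% of all genes) and 2 lower (3% of all genes) than the E9.5 gate. The remainder of E11.5 had 5 higher (1.61% of all genes) and 6 lower (3.44% of all genes) than that of E9.5.

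**Figure D2:**
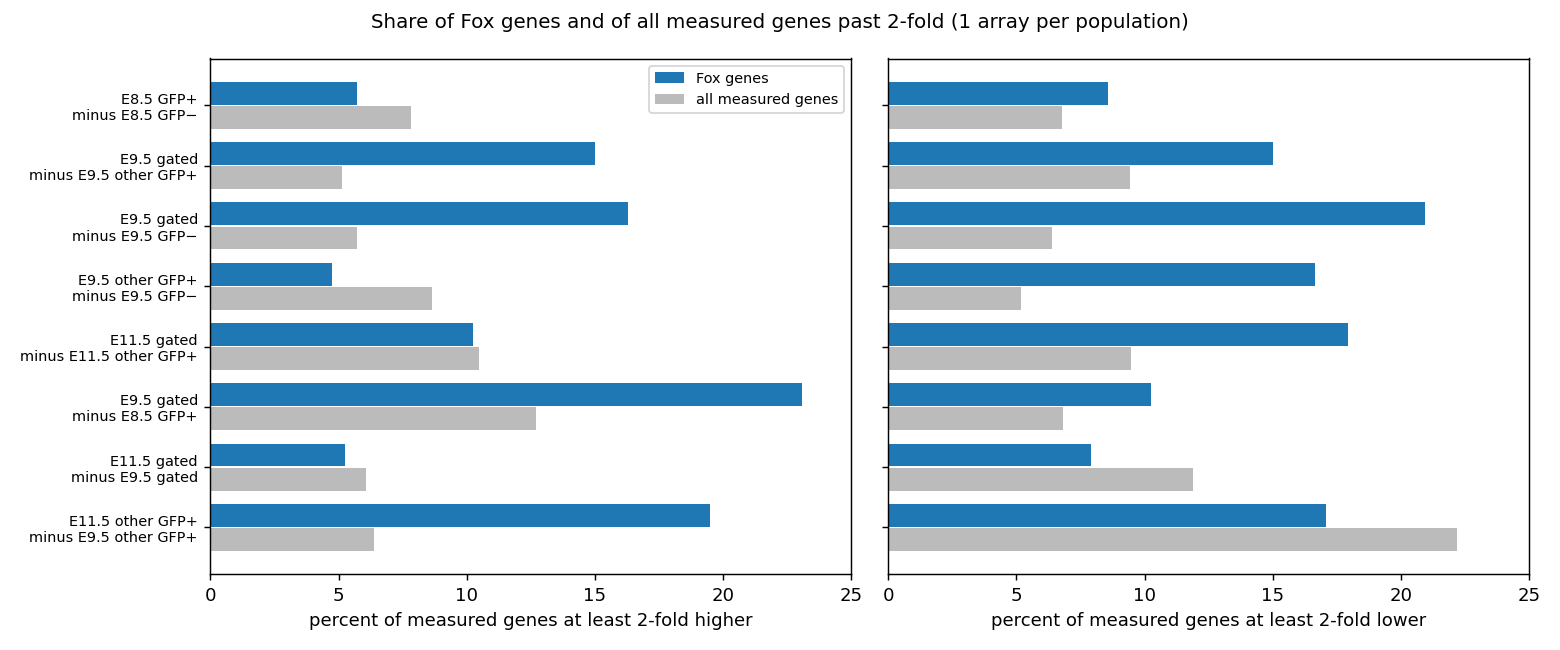
Percent of measured Fox genes (blue) and of all measured genes (grey) at least 2-fold higher (left) or lower (right) in each of 8 comparisons, 1 array per population and no error bars. In E9.5 gated against GFP-negative cells 20.9% of members and 6.39% of all genes were lower, while at E8.5 the higher shares were 5.71% and 7.82%. Of the 9 lower members behind the 20.9%, 8 are bounds. With both arrays required above background 1 of 32 members was lower there, against 4.49% of all genes.

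Foxd1 marks the progenitors of the renal stroma, and its probe lies on chromosome 13 from 99126452 to 99126511 (mm9, NCBI37). Its levels were 2.36 and 2.66 in GFP-positive and negative E8.5 cells, 2.67, 1.89 and 3.52 in E9.5 gated, remainder and GFP-negative cells, and 1.69 and 6.15 in E11.5 gated and remainder cells. The last array stood apart, while the E8.5 GFP-negative and E9.5 gated arrays differed by less than the spot noise. Foxd1 was 21.9-fold lower in E11.5 gated than in remainder cells. At E9.5 the gate differed by 1.72-fold in the opposite direction, and the remainder was 3.1-fold lower than GFP-negative cells. In this bulk RNA fewer cells of a type and less RNA per cell cannot be told apart. Renal stromal progenitor genes other than Foxd1 had 1 of 18 measured members higher and 15 lower in the E11.5 gate, with a median of -2.84 against 0.15 over all genes, and this list holds Pdgfra, a gene of the sort. Tbx18, a stromal transcription factor, was at least 170-fold lower, and Twist1, a mesenchymal transcription factor, at least 129-fold lower. In the same list 12 of 19 genes were well above background in the E11.5 gate and 18 of 19 in the other cells, with log2 summed levels of 6.40 and 7.59. At E9.5 Foxd1 and this list went opposite ways. The list had 1 of 18 higher and 9 lower in the gate against the remainder, with a median of -0.90 (-0.15 over all genes). In the remainder against GFP-negative cells it had 8 of 19 higher and 3 lower, with a median of 0.79 (0.14 over all genes).

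Foxd2, whose loss in mice can leave small kidneys, lay on the side opposite to Foxd1 at E11.5. Its probe on chromosome 4 spans 114578944 to 114579003. Levels were 0.03 and 0.68 in GFP-positive and negative E8.5 cells, 3.07, 1.02 and 1.65 in the 3 populations of E9.5 (gated, remainder, GFP-negative), and 4.75 and 2.28 in E11.5 gated and remainder cells. The gated array was the highest of its stage both times. Foxd2 was 4.12-fold higher in the gate than in remainder cells at E9.5 and 5.55-fold higher at E11.5. It was the only member at least 2-fold higher in the gate at both stages, and also with quantile normalization and on unscaled signals. Nephron progenitor genes had 12 of 20 higher and 2 lower in the E9.5 gate and 11 of 20 higher and 3 lower in the E11.5 gate, a list that holds the sort genes Osr1 and Itga8. Foxe3, a lens factor whose probe lies 18.7 kb from that of Foxd2, ranged by 0.77 log2 units over the 7 arrays and passed 2-fold in no comparison.

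Foxd3, a factor of the neural crest, was well above background only in E9.5 GFP-negative cells, at -2.31, and was at least 4.93-fold lower in gated and at least 4.96-fold lower in remainder cells of that stage. Neural crest genes other than Foxd3 had 1 of 11 higher and 6 lower in E9.5 gated against GFP-negative cells, with Tfap2b, a transcription factor of the crest, 59.5-fold lower. Foxd4 ranged by 1.05 log2 units and passed 2-fold in no comparison.

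Foxc1 and Foxc2 were well above background on every array. Foxc1, on chromosome 13 from 31902423 to 31902482, stood at 0.76 and 0.27 in GFP-positive and negative E8.5 cells, at 1.73, 0.64 and 1.15 in E9.5 gated, remainder and GFP-negative cells, and at 2.03 and 3.21 in E11.5 gated and remainder cells. The gated array was the higher of the pair at E9.5 and the lower at E11.5, by 2.13-fold and 2.26-fold. Foxc2, on chromosome 8 from 123642693 to 123642752, stood at 3.03 and 2.85 in GFP-positive and negative E8.5 cells, at 4.11, 2.58 and 3.35 in the 3 E9.5 populations in the same order, and at 4.73 and 4.96 in E11.5 gated and remainder cells. It was 2.89-fold higher in the E9.5 gate than in remainder cells and differed by 1.18-fold at E11.5. Between stages, the remainder of E11.5 had 5.96-fold more Foxc1 and 5.21-fold more Foxc2 signal than that of E9.5, although the dissected tissues also differ. Foxc1 and Foxc2 act in endothelium as well. Endothelial genes had 7 of 16 higher and 1 lower in the E9.5 gate against the remainder and 16 of 16 well above background on both arrays, with log2 summed levels of 4.5 and 3.95, and their part in the Foxc difference was not tested.

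Foxf2, a factor of gut and body wall mesenchyme whose probe lies 179 kb from that of Foxc1, had levels of 1.73 and 0.29 in GFP-positive and negative E8.5 cells. At E9.5 it stood at 1.0, 1.92 and -0.63 in gated, remainder and GFP-negative cells. The E11.5 gate did not reach well above background, with a signal at -6.65, against -0.47 in the remainder. Each comparison of GFP-positive with GFP-negative cells gave more Foxf2 in the GFP-positive cells, by 2.70-fold at E8.5, 3.11-fold for the E9.5 gate and 5.87-fold for the other E9.5 cells. The E11.5 gate was at least 25.1-fold lower than the remainder, or -1.81 log2 units with normexp. Lateral plate and heart genes had 11 of 14 higher and 0 lower in E8.5 GFP-positive cells, and 0 of 14 higher and 7 lower in the E9.5 gate against the remainder, with Hand2, a transcription factor of heart and limb, at least 32.9-fold lower there. Foxf2 itself did not pass 2-fold between that gate and the remainder. Against E9.5 GFP-negative cells the list had 4 of 14 higher and 2 lower in the gate (median 0.20) and 8 of 14 higher and 1 lower in the remainder (median 2.13).

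The genes on either side were not uniform. Foxq1, a factor of hair and epithelia 70.9 kb from Foxf2, was well above background on 4 arrays, at -3.28 in E8.5 GFP-positive cells, -3.15 and -2.84 in E9.5 gated and remainder cells and -3.89 in E11.5 gated cells. It was at least 2.37-fold and at least 2.94-fold higher in these E9.5 populations than in GFP-negative cells, and at least 2.21-fold higher in the E11.5 gate. Foxl1, a factor of gut mesenchyme whose probe lies 11.7 kb from that of Foxc2, was highest in the E9.5 gate, at -1.85 against -3.07 in remainder and -3.20 in GFP-negative cells. Its fold there was 2.33 against the remainder. Foxf1, 32.0 kb on the other side of Foxc2, was at least 6.74-fold higher in E8.5 GFP-positive than in GFP-negative cells and 1.10-fold lower in the E9.5 gate than in the remainder.

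**Figure D3:**
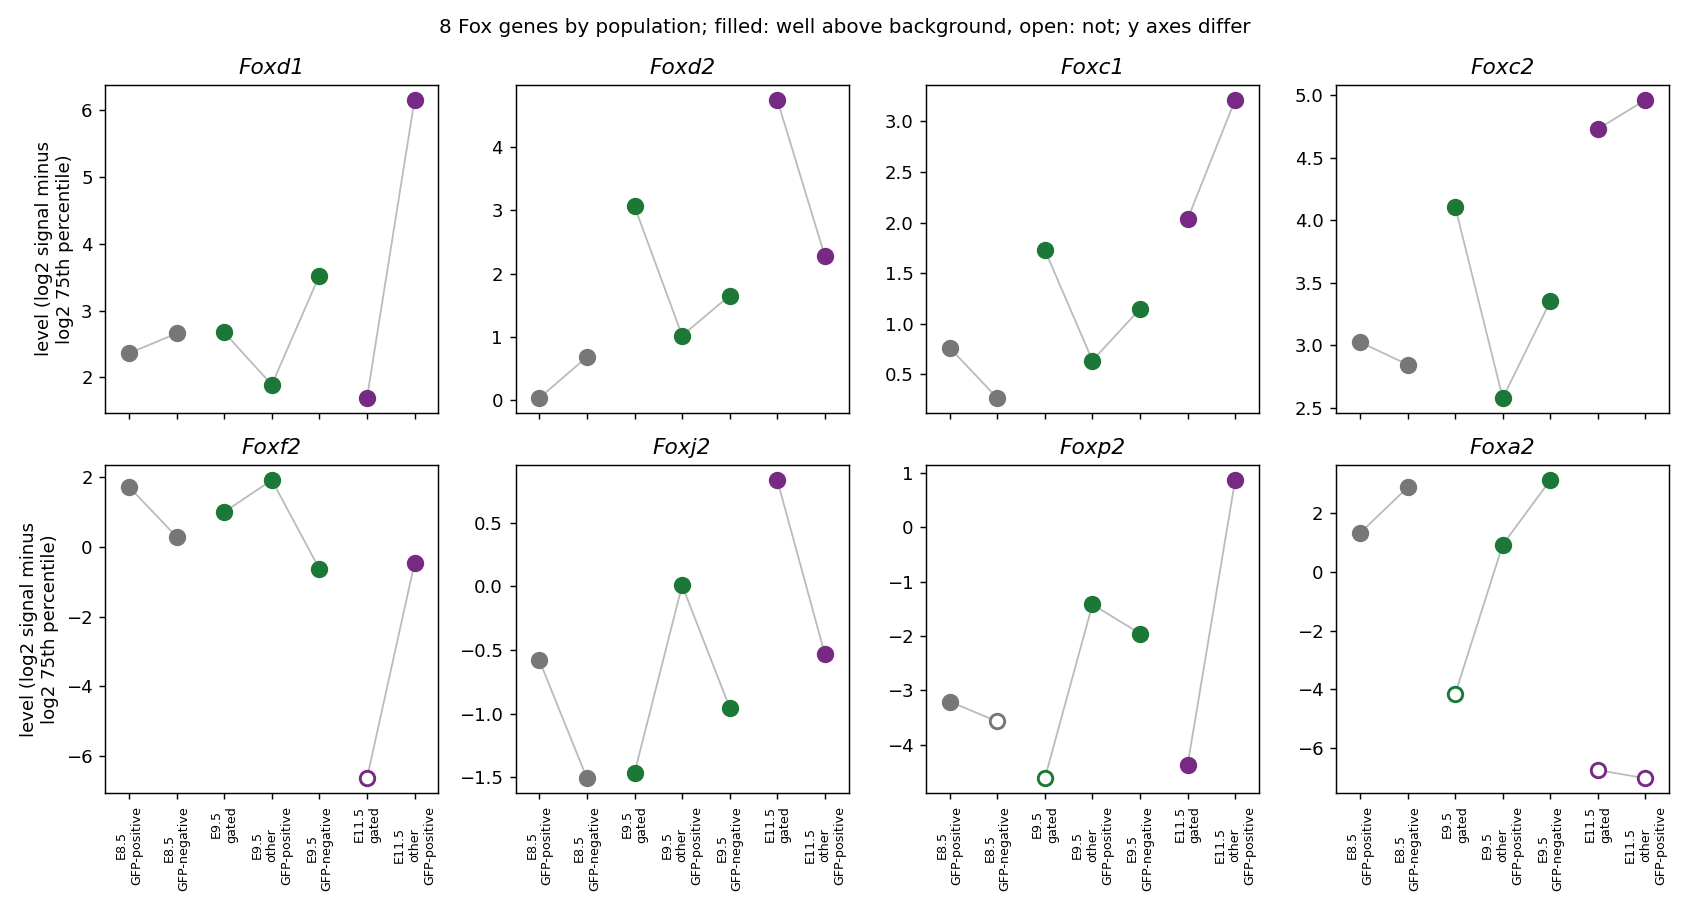
Levels of 8 Fox genes in the 7 populations, as log2 signal minus the log2 75th percentile of the array, with filled points well above background, open points not, and lines joining populations of 1 stage. Each panel has its own y axis and each point is 1 array. In the E11.5 gate Foxd1 is at 1.69 and Foxd2 at 4.75, against 6.15 and 2.28 in the remainder.

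Foxb1, a factor of the hindbrain, midbrain and spinal cord, followed the GFP-negative cells. It stood at -0.31 and 0.78 in GFP-positive and negative E8.5 cells, and at E9.5 it was at -2.93 in remainder and 1.38 in GFP-negative cells and not well above background in gated cells. The E9.5 gate was at least 63.5-fold lower and the remainder 19.8-fold lower than GFP-negative cells. At E11.5 it was -3.97 in the gate and not well above background in the other cells, at least 2.09-fold higher, near the lowest level that the arrays resolve. Neural genes had 0 of 16 higher and 13 lower in E9.5 gated against GFP-negative cells, with 12 and 16 of 16 well above background and log2 summed levels of 3.18 and 7.52. The neural factor Sox2 was at least 153-fold lower there. Against the remainder 0 of 12 were higher and 1 lower. The part of neural cells in the Foxb1 difference was not tested. Foxn4, a factor of retina and spinal cord interneurons, was well above background only in E9.5 GFP-negative cells, at -3.17, and E11.5 remainder cells, at -3.02. Foxr2 was well above background only in E9.5 GFP-negative cells, at -3.14.

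Among the 3 arrays of E9.5, Foxa1, Foxa2 and Foxa3 were lowest in the gate. Foxa2, on chromosome 2 from 147868669 to 147868728, had levels of 1.31 and 2.86 in GFP-positive and negative E8.5 cells. The E9.5 gate did not reach well above background, while the level was 0.92 in remainder and 3.11 in GFP-negative cells, and neither E11.5 array had it well above background. It was 2.93-fold lower in E8.5 GFP-positive than in GFP-negative cells, and at E9.5 at least 33.8-fold lower in the gate than in remainder cells and at least 155-fold lower than in GFP-negative cells. Its second probe gave bounds of at least 4.49-fold and at least 18.6-fold lower for these E9.5 differences. Foxa1 was at least 15.5-fold and at least 19.7-fold lower in the E9.5 gate than in the remainder and the GFP-negative cells. Foxa3, which acts in liver and gut, was well above background at -2.74 and -3.33 in E9.5 remainder and GFP-negative cells and at -4.46 in the E11.5 gate.

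The marker lists of the tissues in which Foxa proteins act moved in part with them. Endoderm genes had 1 of 16 higher and 9 lower in the E9.5 gate against the remainder, with 10 and 16 of 18 well above background and log2 summed levels of 3.26 and 4.41. The median was -1.08, against -0.15 over all genes. The higher one was Sox17, which endothelium also expresses, by 4.36-fold. Notochord and floor plate genes had 0 of 8 higher and 3 lower, and Shh, the ligand made by notochord, floor plate and gut endoderm, was at least 13.9-fold lower. The lower ones were Shh, Cer1 and Krt8, and the endoderm list also holds Shh and Krt8. Surface ectoderm genes, which share keratins, Epcam, Cdh1 and Cldn6 with the endoderm list, had 0 of 15 higher and 8 lower. These lists overlap, so their counts are not separate results. Between E11.5 and E9.5 remainder cells 0 of 16 endoderm genes were higher and 12 lower, Foxa2 at least 61.9-fold and Foxa1 at least 20.9-fold. The part of such cells in the Foxa differences was not tested.

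Hedgehog signalling genes, which include the ligand Shh and the Gli transcription factors, had 0 of 14 higher and 2 lower in the E9.5 gate and 2 of 13 higher and 2 lower in the E11.5 gate against the remainder. At E11.5 Gli1, a direct target of the pathway, was 10.8-fold lower and Gli2 5.26-fold lower in the gate. The 2 higher genes there were Ihh (1.43 log2 units) and Gas1 (1.06). Hhip gave -0.54, and Ptch1 stood at -1.26 in the gate and -0.88 in the remainder, so the list was split. Shh was not well above background on either E11.5 array.

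Among the Foxp genes, which act in brain, lung, heart and blood, Foxp2 differed most between gated and remainder cells. It stood at -3.21 in E8.5 GFP-positive cells, at -1.42 and -1.96 in E9.5 remainder and GFP-negative cells, and at -4.38 and 0.87 in E11.5 gated and remainder cells, and it was not well above background in E8.5 GFP-negative and E9.5 gated cells. The E11.5 gate was 37.8-fold lower than the remainder, and the E9.5 gate at least 9.10-fold lower. Its second probe gave a smaller E11.5 difference on the same side, -2.24 log2 units. With normexp the differences were -2.88 at E11.5 and -1.12 at E9.5. Foxp4 and Foxp1 were above background everywhere and passed 2-fold between stages, Foxp4 by 2.58-fold and Foxp1 by 2.02-fold in the E9.5 gate over E8.5 GFP-positive cells. Foxp1 has 4 probes and Foxp4 3. In that comparison the other Foxp1 probes were 1.94-fold, 1.56-fold and 1.52-fold higher, all short of 2-fold. The other Foxp4 probes were 1.52-fold and 2.50-fold higher. For Foxp1 in E11.5 over E9.5 remainder cells the other probes ran from -2.06 to 1.18 log2 units beside -0.47 for the probe used. The direction of Foxp1 there depends on the probe. Foxp3, the factor of regulatory T cells, ranged by 0.74 log2 units.

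Foxj2 had levels of -1.46 and 0.01 in E9.5 gated and remainder cells and of 0.83 and -0.53 in E11.5 gated and remainder cells. The gate was 2.77-fold lower at E9.5 and 2.58-fold higher at E11.5. Foxj3 was steady, between 4.65 and 5.31. Foxn1, the factor of thymic epithelium, was highest in the E9.5 gate at -1.12 and was 2.52-fold higher there than in GFP-negative cells. Foxn2 ranged by 1.18 log2 units and was 2.11-fold lower in E11.5 than in E9.5 remainder cells.

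**Figure D4:**
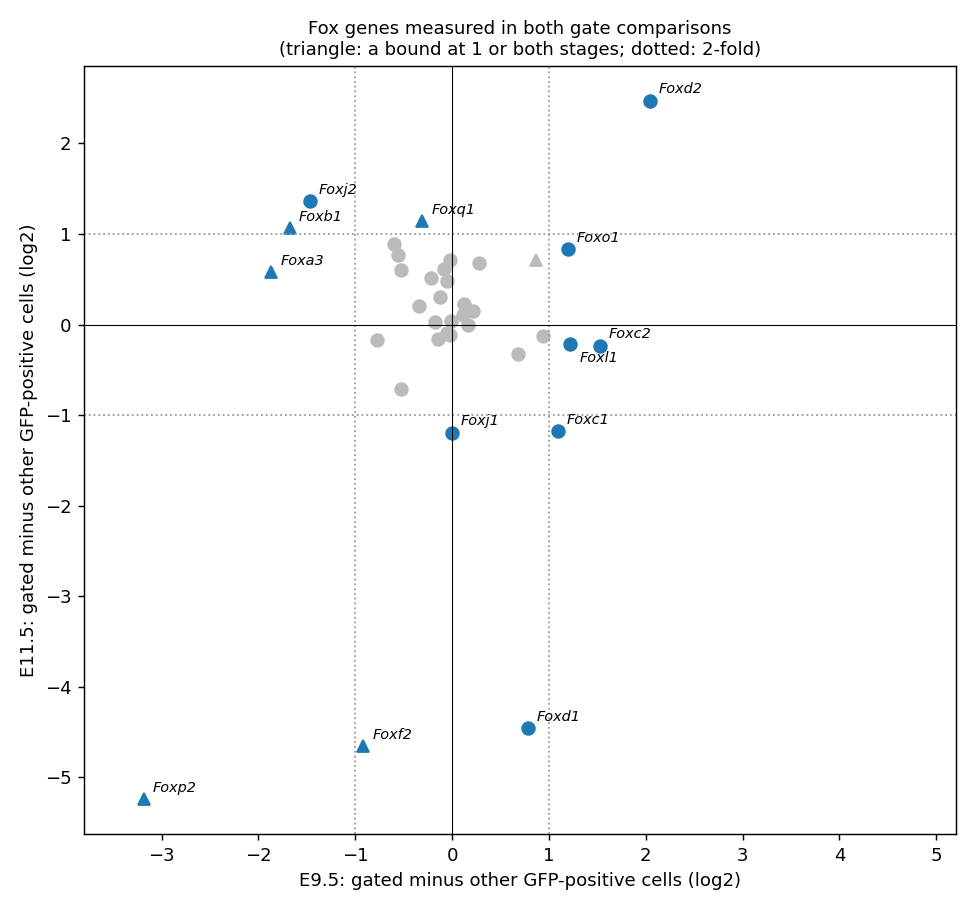
Each point is 1 of 37 Fox genes measured in both gate comparisons, with the log2 difference of gated minus remainder cells at E9.5 on the x axis and at E11.5 on the y axis. Triangles are bounds, dotted lines mark 2-fold and 1 array stands behind each population. Foxd2 lies upper right at 2.04 and 2.47, Foxp2 lower left at -3.19 and -5.24, and Foxc1 lower right at 1.09 and -1.18.

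Foxm1, which drives mitotic genes, lay between 1.81 and 2.62 with the probe used, which passed 2-fold in no comparison. The second Foxm1 probe gave -1.03 log2 units in the E9.5 gate against the remainder and 1.13 in the E9.5 remainder against GFP-negative cells. In E11.5 against E9.5 remainder cells that probe gave -1.75. Mitotic target genes of Foxm1 had 0 of 18 higher and 0 lower in the E9.5 gate against the remainder and 1 of 18 higher and 0 lower at E11.5. Foxo1, which growth factor signalling keeps out of the nucleus, stood at -0.10 and -1.30 in E9.5 gated and remainder cells, 2.29-fold higher in the gate, and at 0.05 and -0.77 at E11.5, 1.78-fold higher. Its second probe gave 1.13 log2 units at E9.5 and 0.25 at E11.5. Foxo target and insulin response genes had 2 of 19 higher and 2 lower in the E9.5 gate and 6 of 18 higher and 2 lower in the E11.5 gate. Bcl2l11, a cell death gene, was 2.98-fold higher in the E9.5 gate and 1.17-fold lower in the E11.5 gate. Pik3ip1, an inhibitor of PI3 kinase, was 8.80-fold lower in the E9.5 gate and 2.50-fold higher in the E11.5 gate. Foxo3 and Foxo4 passed 2-fold in no comparison with the probes used. Another Foxo4 probe was at least 3.35-fold lower in the E9.5 gate and 2.19-fold lower in the E9.5 remainder than in GFP-negative cells. The remaining Foxo4 probe was at least 1.33-fold higher in that remainder than in GFP-negative cells. Foxo6, a brain Foxo, was at least 2.27-fold higher in E8.5 GFP-positive than in GFP-negative cells, but at E11.5 its second probe gave -1.49 log2 units for the gate beside 0.48 for the probe used. That second probe gave no fold at E8.5. At E9.5 it was 3.50-fold higher in the remainder and 2.53-fold higher in the gate than in GFP-negative cells, where the probe used did not pass 2-fold.

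Foxj1, the driver of motile cilia, was at least 3.28-fold lower in E8.5 GFP-positive than in GFP-negative cells. It was 2.53-fold lower in each GFP-positive population of E9.5 than in GFP-negative cells. At E11.5 it was 2.29-fold lower in the gate, at -4.15 against -2.96 in the other cells. Foxj1 did not pass 2-fold between the E9.5 gate and the remainder, at -3.66 on both arrays. Genes of the motile cilium had 0 of 13 higher and 2 lower in the GFP-positive cells of E8.5. They had 2 of 16 higher and 0 lower in the E9.5 gate against the remainder and 3 of 14 higher and 1 lower in the E11.5 gate. Dnah5, a dynein heavy chain, was at least 13.6-fold higher in the E9.5 gate and 2.15-fold higher in the E11.5 gate. Foxh1, the partner of Smad2 in Nodal signalling, was highest at E8.5, at -0.74 and -0.03 in GFP-positive and GFP-negative cells, and lay between -1.74 and -1.44 on the 5 later arrays. Genes of the Nodal pathway had 3 of 14 higher and 0 lower in E8.5 GFP-positive cells, with Lefty2 3.37-fold and Nodal 2.86-fold higher, while Foxh1 itself differed by 1.64-fold in the opposite direction.

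Between stages, 9 of 39 measured members were higher (12.7% of all genes) and 4 lower (6.81% of all genes) in the E9.5 gate than in E8.5 GFP-positive cells, across slides and from different tissue pieces. With quantile normalization 9 members were higher and 6 lower, and the shares of all genes were 8.81% and 9.37%. Foxd2 was 8.18-fold higher and Foxa2 at least 44.4-fold lower. Foxb2, a neural factor, was 2.23-fold higher there, at -2.48 against -3.64. In the E11.5 gate 2 of 38 members were higher (6.06% of all genes) and 3 lower (11.9% of all genes) than in the E9.5 gate, also across slides. With quantile normalization the shares of all genes were 8.29% and 9.69%. Foxj2 was 4.92-fold and Foxd2 3.22-fold higher, while Foxf2 was at least 69.6-fold and Foxn1 2.26-fold lower.

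In the remainder of E11.5, 8 of 41 members were higher (6.38% of all genes) and 7 lower (22.2% of all genes) than in that of E9.5, within 1 slide. The median difference of all genes was -0.36 in this comparison and -0.05 with quantile normalization, which called 11 members higher and 7 lower, against 11.6% and 10.3% of all genes. Relative to the all-gene median 9 members were higher and 6 lower. Foxd1 was 19.1-fold, Foxc1 5.96-fold, Foxc2 5.21-fold and Foxp2 4.88-fold higher. The second Foxp2 probe was only 1.17-fold higher, so the size of the Foxp2 difference depends on the probe. Foxf2 was 5.24-fold lower. Renal stromal progenitor genes other than Foxd1 had 10 of 18 higher and 1 lower in the same comparison, with Ebf1, a stromal transcription factor, 6.01-fold higher, and immediate early genes had 9 of 12 higher and 2 lower, whose part was not tested either.

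With the probe used for each gene, the 18 members past 2-fold in no comparison ranged by 0.25 to 1.72 log2 units over the 7 arrays. Of them 16 were well above background on every array. Foxl2, the ovarian and eyelid factor, was the steadiest, between 5.85 and 6.09, and its second probe lay between -0.22 and 0.09. These 2 probes overlap, with 81.7% G and C in the probe used and 71.7% in the second. Whether the higher signal reflects Foxl2 RNA was not tested. Foxn3, Foxr1, Foxk1, Foxi1 and Foxe1 ranged by 0.37, 0.37, 0.46, 0.56 and 0.63 log2 units. Foxk2, Foxs1 and Foxi3 ranged by 0.96, 0.98 and 0.89. For Foxn3 the second probe was at least 2.68-fold lower in E11.5 than in E9.5 remainder cells, as a bound, beside 0.13 log2 units for the probe used. For Foxo3 the second probe gave -1.02 at E8.5 beside 0.37. The second Foxe1 probe was at least 4.02-fold lower in E11.5 than in E9.5 remainder cells. At E9.5 its remainder level was at least 2.99-fold above the gate and at least 2.65-fold above GFP-negative cells. Foxi2 was well above background on 3 arrays, the gated ones of E9.5 and E11.5 and the E11.5 remainder one, at -3.67, -3.54 and -4.25.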

How the data were processed

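RNA of 7 sorted populations (10 ng each, amplified and labelled with Cy3, per the labels' protocols) was hybridised to 1 array each. Spot intensities are the authors' processed signal, background-subtracted and detrended per the file headers. Feature Extraction 10.7.3.1 made them, as the submitters' processing notes have it. The deposited value table holds the same intensity for all 62976 spots of each array, with no scaling between arrays and column medians from 30.6 to 51.3. Coordinates are mm9 (NCBI37), per the file headers.

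The log2 signal was scaled to the 75th percentile of each array's non-control spots, without spots that carry an outlier flag, and spots of a probe were averaged. Each Fox probe had 1 spot and 0 were flagged. No spot was saturated. Of several probes for a gene the one with the highest mean was used, and 12 members had several probes. A probe counted as well above background where at least 0.5 of its spots did. Differences with 1 dim side are bounds, and none is given where the bound pointed the other way. Genes named in the text are the members past 2-fold in a comparison whose other probes did not lie over 1 log2 unit on the opposite side, members given by range or for their probes, and examples from 18 gene lists (266 symbols, 1 without a probe). Members and lists were chosen with earlier results of these data known. The values of some genes are not reported here, while counts include them. An order of members within an array was planned and is not given, since levels of different probes are not comparable. Alternatives were quantile normalization, unscaled signals, normexp background correction with offset 50 (limma 3.58.1, R 4.3.3), no filter on dim genes, genes above background on both arrays, the mean of all probes, a 4-fold threshold and, chosen after seeing the data, centring on the all-gene median. The steps from levels to differences were run on simulated data in which only bright genes were changed. No simulated gene was dim on 1 side only, so the step that makes bounds was not tested. Python 3.11.15, numpy 2.4.6 and pandas 2.3.3 were used. Pearson correlations between arrays ran from 0.920 to 0.966.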

Additional observations from a re-analysis of the deposited data

Results flagged for a closer look

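For Foxc1, Foxj2 and Foxb1 the gated cells lay at least 2-fold above the other GFP-positive cells at one stage and at least 2-fold below them at the other. The difference between stages was not tested, since each value comes from 1 array per population, and the E9.5 value also lies across slides. Foxc1 differed by 1.09 log2 units at E9.5 and -1.18 at E11.5. Foxj2 differed by -1.47 at E9.5 and 1.37 at E11.5. Foxb1 differed by -1.68 at E9.5 and 1.07 at E11.5, both bounds, and the E11.5 value was 0.79 with quantile normalization, 0.86 without scaling and 0.27 with normexp.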

How the results depend on the processing

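No paired analysis was possible because each population had 1 array. Of the 86 Fox differences past 2-fold, 0 changed direction in an alternative that measured them. Still past 2-fold on the same side were 83 with quantile normalization, 82 without scaling and 83 with the mean of probes. With normexp, whose offset of 50 shrinks folds of dim probes, 49 were. Without a filter all 86 had to stay, since a bound can only widen there. With both arrays required above background 39 were not measured, and the other 47 kept their values by construction. Neither of these settings is a check of the differences. The counts below moved by over 1.5 times. At 4-fold a count can only fall, and requiring both arrays above background drops every bound, so those moves follow from the settings. The cause of the other moves was not tested. At E8.5, higher members numbered 4 without scaling, 1 with normexp, 1 with both arrays above background, 1 with the mean of probes and 0 at 4-fold, and lower ones 1 with normexp and 0 at 4-fold. Against the remaining GFP-positive cells, the E9.5 gate had 2 higher at 4-fold, and its lower ones numbered 1 with both arrays above and 3 at 4-fold. Against GFP-negative cells the gate had 3 higher with normexp and 1 at 4-fold, and 3 lower with normexp, 1 with both arrays above and 5 at 4-fold. For the remaining GFP-positive against the GFP-negative cells of E9.5, 1 was higher with normexp, 1 with both arrays above, 6 with the mean of probes and 1 at 4-fold, and 3, 4 and 3 were lower with normexp, both arrays above and 4-fold. In the E11.5 gate 2 were higher with quantile normalization, without scaling, with normexp, with both arrays above and centred on the all-gene median, and 1 at 4-fold, and 4 were lower with both arrays above and 4 at 4-fold. In the E9.5 gate set against GFP-positive cells of E8.5, 5 were higher with normexp and 2 at 4-fold, and 0 were lower with both arrays above. Between the gates of E11.5 and E9.5, 4 were higher without a filter and 1 at 4-fold, and 5 were lower without a filter and 1 with both arrays above. In the remaining cells of E11.5 against E9.5, 5 were higher at 4-fold, and 3 were lower with normexp and 2 with both arrays above. Without scaling the all-gene median difference was 0.18 at E8.5 (0.05 with scaling), -0.18 for the E9.5 gate (0.01) and -0.08 for the remaining cells (0.14), both relative to E9.5 GFP-negative cells. It was -0.06 in the E11.5 gate (0.15). A model with slide as a block could not be fitted with 1 array per population. The lowest well-above level was -3.46 on the E8.5 GFP-negative array and between -5.12 and -4.43 on the others, which limits the bounds against it.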
